A study of Mus musculus with 24 samples.

Results

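Mitochondrially encoded RNAs were taken as every gene symbol that starts with mt- in the expression tables, which gave 37 of the 38019 symbols listed. They comprised 13 mRNAs, 2 rRNAs and 22 tRNAs, and all 37 were found on the mitochondrial chromosome in GENCODE M21 (GRCm38). The data were RNA sequencing profiles of mouse limb buds (strain C57/Bl6), given as length-normalised abundances (TPM) in 24 libraries. The 8 groups of 3 libraries crossed stage (E10.5 or E11.5), limb (forelimb, FL, or hindlimb, HL) and genotype. Libraries labelled WT had the genotype U11flx/flx::Prrx1-Cre-, and libraries labelled Mut had U11flx/flx::Prrx1-Cre+. Both alleles of Rnu11, the gene for the U11 RNA of the minor spliceosome, were therefore floxed in every group, controls included. Prrx1-Cre is active in limb mesenchyme, so ectoderm, blood, vessels and muscle precursors of a mutant bud were not its targets. Which libraries share an embryo or litter is not in the labels, and p-values measure only the spread between these libraries.

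Mammalian mitochondrial DNA is a circle that is transcribed from both strands into long precursor RNAs. The tRNAs lie between most of the mRNAs and rRNAs, and their excision frees the neighbouring transcripts. The mRNAs encode core subunits of the respiratory chain and of ATP synthase, and the rRNAs build the mitochondrial ribosome, while every protein that transcribes, processes and translates these RNAs is made from nuclear genes. Mature levels therefore depend on stability as well as on transcription.

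Several sequences set what can be read from these values. They were read from GRCm38 and are given 5′ to 3′ on the strand of the gene. The tRNAs are short: mt-Ts2 (chrM:11613-11671, + strand, 59 nt) was the shortest and mt-Tl1 (chrM:2676-2750, + strand, 75 nt) the longest.
mt-Ts2: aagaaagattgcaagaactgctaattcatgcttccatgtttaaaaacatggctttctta
mt-Tl1: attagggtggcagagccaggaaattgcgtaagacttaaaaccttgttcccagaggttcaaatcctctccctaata

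Some neighbouring protein-coding genes overlap, so some reads can belong to both genes of a pair. mt-Atp8 and mt-Atp6, which encode ATP synthase subunits, share 43 bases, shown in capitals at the end of mt-Atp8 (chrM:7907-7969, + strand). mt-Nd4l and mt-Nd4, which encode subunits of complex I (NADH dehydrogenase), share 7 bases, shown in capitals at the end of mt-Nd4l (chrM:10134-10173, + strand). mt-Nd5 and mt-Nd6, also complex I subunits, run towards each other on opposite strands and share 14 bases at their ends, shown in capitals for mt-Nd5 (chrM:13526-13565, + strand) and mt-Nd6 (chrM:13552-13591, − strand).
mt-Atp8 and mt-Atp6 junction: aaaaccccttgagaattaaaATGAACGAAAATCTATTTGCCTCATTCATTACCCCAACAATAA
mt-Nd4l and mt-Nd4 junction: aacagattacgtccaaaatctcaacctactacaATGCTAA
mt-Nd5 end: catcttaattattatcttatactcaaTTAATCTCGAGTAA
mt-Nd6 end: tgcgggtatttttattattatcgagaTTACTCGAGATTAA

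mt-Nd6 was the single mRNA transcribed from the light strand, and its base composition set it apart from the other 12. It held 28.1% G and 5.97% C, whereas the 12 mRNAs transcribed from the heavy strand held 5.88% to 16.1% G and 22.1% to 30.0% C. Its first 60 bases (chrM:14011-14070, − strand) contain 12 G, in capitals, against 3 in the first 60 bases of its neighbour mt-Cytb (chrM:14145-14204, + strand).
mt-Nd6 start: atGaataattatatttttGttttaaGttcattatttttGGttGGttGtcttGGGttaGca
mt-Cytb start: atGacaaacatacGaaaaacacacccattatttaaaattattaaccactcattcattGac

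A few properties of the libraries touch the values below. Levels are given as rescaled TPM, meaning deposited TPM multiplied in each library by a factor (0.539 to 1.51) that equalised the median log2 value of the 3518 genes that reached 5 TPM in all of them. Read depth is unknown, because TPM keeps none. Rnu11 in E10.5 libraries was at 251 to 1063 rescaled TPM in WT and 94.2 to 482 in mutants, and in E11.5 libraries at 922 to 2087 and 135 to 420. The ranges overlapped at E10.5, where E10.5 Mut FL 3 (482) lay above E10.5 WT FL 1 (251) and E10.5 WT HL 3 (427). E10.5 Mut HL 3 (267) also lay above E10.5 WT FL 1. E10.5 Mut FL 3 also carried the hindlimb gene Hoxc10 at 3.91, against at most 0.342 in the other E10.5 FL libraries. Besides, it had both Xist, expressed from the inactive X of females, at 8.03 and Ddx3y, a Y-linked gene, at 6.49. Xist was above 5 in 6 libraries, all mutant (8.03 to 28.6), and at most 1.32 in WT libraries, so sex differed between the genotypes, and its part in the results was not tested. E10.5 WT FL 1 had the fewest symbols above 0 (16133, against up to 26302). The 10 limb mesenchyme markers had a sum of 106 to 234 at E10.5, against 188 to 278 at E11.5. The 12 erythroid markers summed to 4533 to 5525 in E10.5 Mut FL and to 1411 to 3545 in the other E10.5 groups.

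All 22 tRNAs were listed at 0 in all 24 libraries. So were all 972 annotated symbols of at most 75 nt, whatever their type, and the shortest symbol listed above 0 in any library had 78 nt. Symbols of 80 to 99 nt were at 0 throughout in 99.29% of cases, and those of 500 to 999 nt in 12.69%. The zeros of the tRNAs thus matched those of other RNAs of their length and gave no information on tRNA levels in any group.

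The 13 mRNAs and both rRNAs were above 1 TPM in all 24 libraries, and these 15 entered every test. Together they made up 7.40% to 17.5% of a library's TPM. The rRNAs accounted for a median of 80.2% of that amount and at most 84.0%. mt-Rnr2, the rRNA of the large mitochondrial ribosomal subunit, had a median of 80242 rescaled TPM (40717 to 158798). mt-Rnr1, the rRNA of the small subunit, had a median of 6234 (2717 to 9879). The ratio of mt-Rnr2 to mt-Rnr1 was 6.06 to 22.2 per library although both are cut from the same precursor. The labels do not say whether a step to remove rRNA was used.

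The mRNA levels, all per length, fell into a wide order. mt-Atp8 stood highest with a median of 6593 rescaled TPM (3704 to 16338). With 204 nt its gene is the shortest of the protein-coding members and shares 43 of these bases with mt-Atp6. The mRNAs of complex IV (cytochrome c oxidase) came next: mt-Co3 had a median of 3502, mt-Co2 of 2771 and mt-Co1 of 2598. mt-Atp6 had a median of 1850. The ranges of neighbours in this order overlapped widely.

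Complex I mRNAs spanned the lower part of the order. mt-Nd3 (1273) and mt-Nd1 (1267) had nearly equal medians and mt-Cytb, the mRNA of the complex III (cytochrome bc1) subunit, followed at 829. mt-Nd4l was at 386, mt-Nd4 at 259, mt-Nd2 at 246 and mt-Nd5 at 139. mt-Nd6 was lowest with a median of 118 (59.4 to 234). Its values overlapped those of mt-Nd5 (91.3 to 268) across libraries. Whether reads were counted by strand is not given in the sources used here, so reads of RNA antisense to a gene could enter its value.

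**Figure D1:**
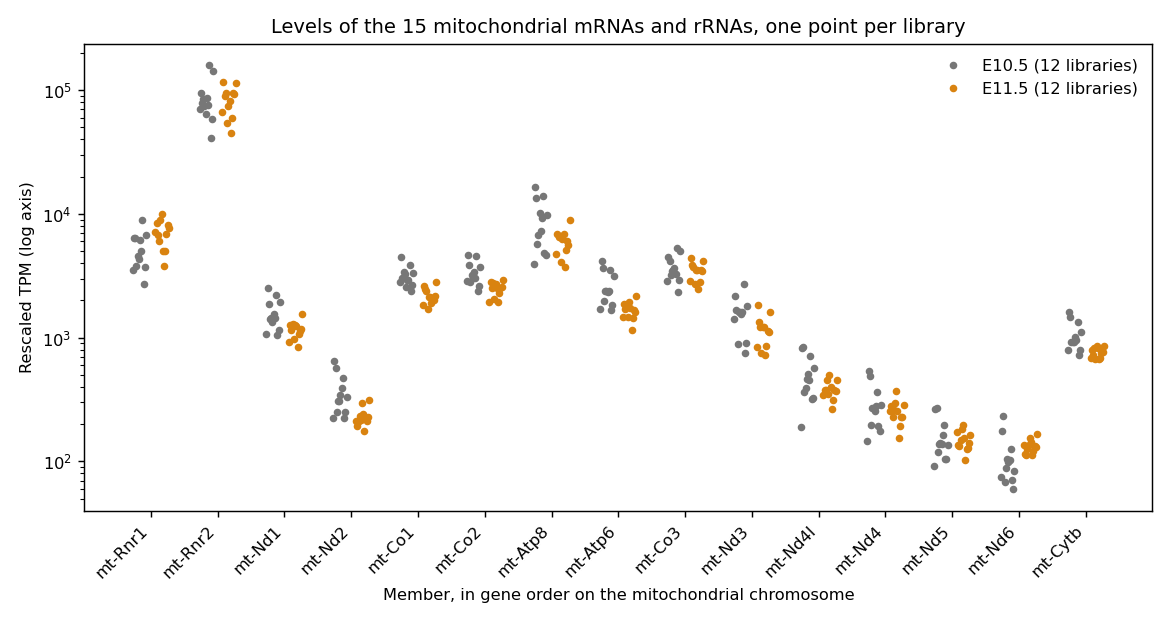
Levels of the 15 mitochondrial mRNAs and rRNAs in gene order, as rescaled TPM on a log axis, with 1 point per library (grey, 12 E10.5 libraries; orange, 12 E11.5 libraries). mt-Rnr2 lies above all others (median 80242) and mt-Nd6 and mt-Nd5 lie lowest (118 and 139), with most genes spread more widely at E10.5 than at E11.5.

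Overlapping neighbours kept a narrow range of ratios. The ratio of mt-Atp8 to mt-Atp6 was 2.33 to 4.26 over the 24 libraries, and that of mt-Nd4l to mt-Nd4 was 1.17 to 2.01. In each pair the shorter gene stood higher in every library. These levels are per gene and per length, so they do not show whether the genes of a pair share an RNA molecule. Across the 24 libraries, as a description, each heavy-strand mRNA correlated with the geometric mean of the other heavy-strand mRNAs (Pearson r = 0.70 to 0.97). That mean leaves out the gene itself, but a library's scale factor enters all of them. mt-Nd6 (r = 0.43) and mt-Rnr1 (r = 0.38) followed the mean of all 12 less closely, and mt-Rnr2 lay between (r = 0.64). After group means were removed, the coefficients were 0.80 for mt-Nd6, 0.78 for mt-Rnr1 and 0.72 for mt-Rnr2.

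Among nuclear genes, those most like the heavy-strand mRNA mean over the 24 libraries were Sept7 (r = 0.89), Hdac2 (0.87), Shoc2 (0.87), Fam103a1 (0.86) and Depdc1a (0.85). These 5 were selected for the highest coefficients, so the coefficients are a description.

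The comparison of stages asked how the RNAs differed between E10.5 and E11.5 in each limb and genotype. In bulk tissue, fewer cells of a type and less RNA per cell cannot be told apart. Reads of the E10.5 libraries alone had been trimmed by 3 nt, so stage and trimming cannot be told apart either. Several heavy-strand mRNAs fell in FL, by limma on rescaled log2(TPM + 1) with Benjamini-Hochberg adjustment over all 12399 genes tested. In Mut FL no member passed on TPM as deposited. In HL, mt-Rnr1 rose in both genotypes and mt-Nd6 rose in mutants on the rescaled values, but neither passed on TPM as deposited. Of all genes tested, 38.8% passed in WT FL, 35.4% in Mut FL, 40.9% in WT HL and 35.5% in Mut HL, so a large share of the transcriptome differed between the stages.

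In WT FL, 4 of 15 members fell and none rose, against 16.4% of all genes lower and 22.4% higher. The largest of these differences was in mt-Nd2, a complex I subunit mRNA, which read 223, 647 and 566 rescaled TPM in the 3 E10.5 libraries and 213, 192 and 209 in the 3 E11.5 libraries. Every E11.5 value lay below every E10.5 value, and the log2 difference was -1.08 ± 0.28 (SE; limma, Benjamini-Hochberg adjusted p = 0.00602). mt-Cytb read 794, 1609 and 1463 at E10.5 and 682, 797 and 730 at E11.5, a fall of log2 -0.74 ± 0.22 (limma, adjusted p = 0.013). These groups overlapped, because E10.5 WT FL 1 (794) lay below the highest E11.5 value (797). mt-Atp6 read 1690, 4170.2 and 3683 in WT FL at E10.5 and 1467, 1875 and 1695 at E11.5 (log2 -0.83 ± 0.30; limma, adjusted p = 0.0382), and mt-Co2 was the fourth that fell (-0.64 ± 0.24). Over all members, 1 lay above and 3 lay below the E10.5 libraries without overlap, against 25.7% and 18.8% of all genes. The E10.5 libraries of this group differed more among themselves than those of E11.5. Without E10.5 WT FL 1 the count rose to 11, without E10.5 WT FL 2 or 3 it dropped to 1, and without E11.5 WT FL 1 or 3 it was 2.

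In Mut FL, 6 members fell and none rose, against 17.3% of all genes lower and 18.1% higher. mt-Nd2 read 344, 395 and 474 at E10.5 and 243, 177 and 224 at E11.5 (log2 -0.91 ± 0.28; limma, adjusted p = 0.018). mt-Atp6 read 2332, 2373 and 3516 at E10.5 and 1744, 1160 and 1429 at E11.5 (log2 -0.92 ± 0.30; limma, adjusted p = 0.0255). mt-Nd3, a further complex I mRNA, read 1538, 1618 and 2717 at E10.5 and 1208, 725 and 864 at E11.5 (log2 -1.05 ± 0.36; limma, adjusted p = 0.0293). For all 3 the groups did not overlap. In all, 10 members lay lower at E11.5 without overlap and 0 lay higher, against 24.8% and 27.8% of all genes. mt-Co2, mt-Co1 and mt-Cytb also fell, by 0.69, 0.67 and 0.59 on the log2 scale. No member passed without E10.5 Mut FL 3 or without E11.5 Mut FL 2, 1 passed without E11.5 Mut FL 3, and 2 passed without both E10.5 Mut FL 3 and E10.5 WT FL 1.

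In HL no mRNA of the heavy strand passed. In WT HL, 1 of 15 members passed, against 23% of all genes higher and 17.9% lower. This was mt-Rnr1, which read 3789, 4607 and 4286 at E10.5 and 6074, 8928 and 9879 at E11.5. All 3 E11.5 values were higher, by log2 0.95 ± 0.33 (limma, adjusted p = 0.0296). mt-Nd5 and mt-Nd6 were also higher without overlap, and mt-Atp6, mt-Co1, mt-Co2, mt-Cytb and mt-Nd1 were lower, which made 3 and 5 members against 28% and 22.1% of all genes. mt-Rnr1 did not pass without E10.5 WT HL 1, E11.5 WT HL 2 or E11.5 WT HL 3, and no member then did. mt-Nd6 read 68.4, 88.1 and 104 at E10.5 and 125, 135 and 154 at E11.5, without overlap, and missed the threshold at log2 0.68 ± 0.27 (limma, adjusted p = 0.0538). Without E10.5 WT HL 3, 2 members passed.

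In Mut HL, 2 of 15 members rose, against 18% of all genes higher, and none fell, against 17.5% lower. mt-Nd6 read 70.7, 59.4 and 84.0 at E10.5 and 133, 130 and 166 at E11.5 (log2 1.00 ± 0.27; limma, adjusted p = 0.0087). mt-Rnr1 read 2717, 3741 and 6718 at E10.5 and 6894, 8079 and 7614 at E11.5 (log2 0.88 ± 0.33; limma, adjusted p = 0.0467). Neither pair of groups overlapped, and they were the 2 members higher without overlap (27.5% of all genes) while 0 were lower (24.4%). mt-Rnr1 rested on narrow margins, and 1 member passed in place of 2 when E10.5 Mut HL 1, E10.5 Mut HL 2 or any of the 3 E11.5 Mut HL libraries was left out.

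In FL, mt-Nd6 and mt-Rnr1 did not pass. mt-Nd6 read 74.7, 175 and 234 in WT and 98.6, 104 and 126 in mutants at E10.5, and 135, 115 and 113 in WT and 142, 112 and 121 in mutants at E11.5. The stages overlapped in both genotypes (log2 -0.27 ± 0.27 in WT and 0.19 ± 0.27 in mutants). mt-Rnr1 read 3527, 6344 and 6376 in WT at E10.5 and 7126, 8484 and 6685 at E11.5, and in mutants 6124, 5029 and 8978 at E10.5 and 4971, 3759 and 5020 at E11.5. The E11.5 libraries lay above the E10.5 libraries in WT and below them in mutants (log2 0.50 ± 0.33 and -0.52 ± 0.33), the latter by a margin of 5029 against 5019.7.

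mt-Rnr2 did not pass in any of the 4 groups. Its log2 differences were 0.13 in WT FL, -0.74 in Mut FL, -0.02 in WT HL and 0.53 in Mut HL, each ± 0.62, and the smallest adjusted p by limma was 0.37. The lowest and highest values, 40717 in E10.5 Mut HL 1 and 158798 in E10.5 Mut FL 3, both came from mutant libraries of E10.5. mt-Atp8 had the second widest SE, 0.47, and fell past the threshold in no group. Its highest value was 16338 in E10.5 WT FL 2 and its lowest 3704 in E11.5 Mut FL 2, and the 3 E10.5 WT FL libraries alone read 3931, 16338 and 13454.

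These directions depend on the scale. On rescaled values the median difference of all genes was 0.01 to 0.06 (log2) in the 4 stage comparisons, whereas on TPM as deposited it was -0.27 in WT FL, 0.18 in Mut FL, -0.42 in WT HL and -0.61 in Mut HL. The median of the 15 members was -0.48, -0.69, -0.22 and 0.15 on rescaled values and -0.96, -0.45, -0.88 and -0.71 as deposited, so the sign flipped in Mut HL. Members lay below 0 in 13, 14, 10 and 6 of 15 cases on rescaled values and in 14, 14, 13 and 13 cases as deposited. On TPM as deposited, limma called 8 members in WT FL (22% of all genes), 0 in Mut FL (8.23%), 9 in WT HL (34.5%) and 7 in Mut HL (50.9%), and each of these was lower at E11.5. mt-Rnr1 and mt-Nd6 did not pass on that scale in HL, at log2 0.29 and 0.029 in WT and 0.023 and 0.15 in mutants. As deposited, the 13 mRNAs made up 1.76% to 5.27% of a library at E10.5 (median 3.03%), against 1.41% to 2.29% at E11.5 (median 1.60%). The rRNAs had a median share of 9.38% at E10.5 and 7.43% at E11.5, with overlapping ranges. Nuclear structural RNAs had a median share of 55.61% at E10.5 and 69.95% at E11.5, and nuclear protein-coding RNAs 22.79% and 17.11%. As a share of mitochondrial and nuclear mRNA alone, the 13 mRNAs had a median of 11.43% at E10.5 (8.12% to 19.11%). At E11.5 this median was 9.23% (6.98% to 11.87%), so the ranges overlapped. The part of the nuclear shares in the library share of the 13 mRNAs was not tested.

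**Figure D2:**
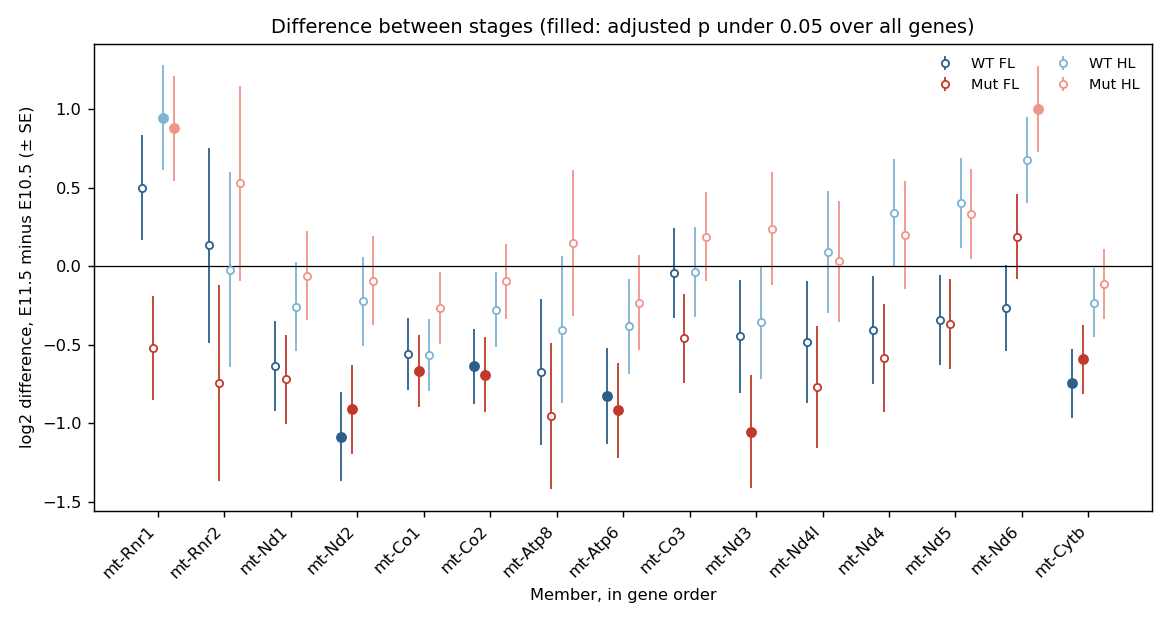
Log2 differences of rescaled TPM between E11.5 and E10.5 for the 15 members in gene order, with SE bars, in WT and Mut FL and HL; filled points passed an adjusted p of 0.05 by limma. Heavy-strand mRNAs lie mostly below 0 in FL (mt-Nd2 -1.08 in WT and -0.91 in mutants), mt-Nd6 reaches 1.00 in Mut HL, and on TPM as deposited the members' median in Mut HL is -0.71 in place of 0.15.

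An average over the 4 group pairs, added after the data were seen, called 8 of 15 members, against 68.8% of all genes. mt-Co1 (log2 -0.51 ± 0.12), mt-Atp6 (-0.59 ± 0.15), mt-Nd2 (-0.58 ± 0.14), mt-Cytb (-0.42 ± 0.11), mt-Co2 (-0.42 ± 0.12) and mt-Nd1 (-0.42 ± 0.14) fell on rescaled values. mt-Nd6 (0.40 ± 0.14; limma, adjusted p = 0.0143) and mt-Rnr1 (0.45 ± 0.17; limma, adjusted p = 0.0218) rose on rescaled values, but mt-Nd6 was at -0.03 on TPM as deposited. Without the 3 E11.5 WT libraries of lowest mt-Rnr2 to mt-Rnr1 ratio (FL 1 at 9.27, HL 2 at 6.06 and HL 3 at 7.58) the count was 5, and on TPM as deposited 13 members fell (53.7% of all genes) and none rose.

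**Figure D3:**
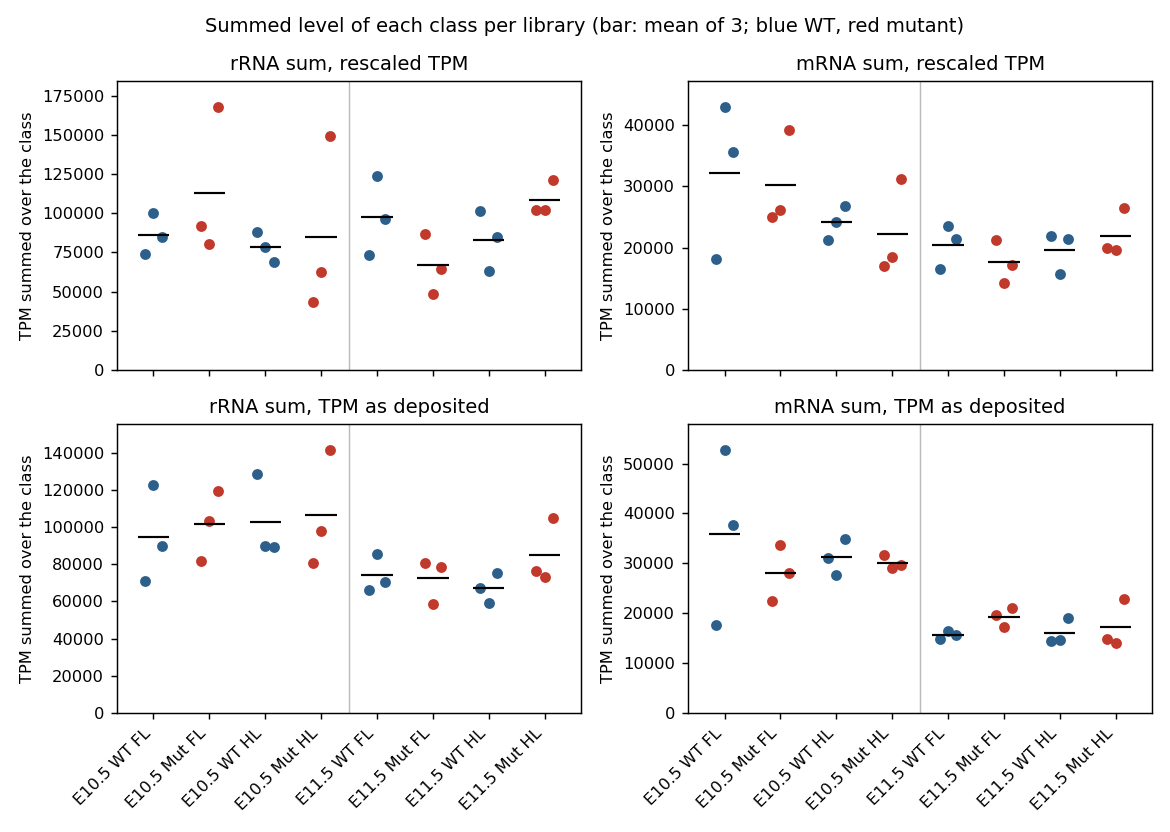
Summed TPM of the 2 rRNAs and the 13 mRNAs in each library (points, blue for WT and red for mutant), with the mean of each group as a bar. Upper panels show rescaled TPM and lower panels TPM as deposited. The rescaled mRNA sum spans 17014 to 42953 at E10.5, against 14208 to 26402 at E11.5, and the rescaled rRNA sum has its extremes, 43434 and 167777, in E10.5 mutant libraries. As deposited, the mRNA sum spans 17552 to 52651 at E10.5, against 14070 to 22854 at E11.5.

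Ratios within a library do not depend on its scale. mt-Nd6 amounted to 6.03% to 13.5% of the geometric mean of the 12 heavy-strand mRNAs at E10.5 (median 8.33%) and to 10.8% to 16.2% at E11.5 (median 14.0%). The ratio was 1.89 times as high at E11.5 in Mut FL, 1.79 times in WT HL and 1.98 times in Mut HL, with no overlap of the 3 and 3 libraries. In WT FL the stages overlapped, at 9.03%, 8.73% and 13.5% against 16.1%, 10.8% and 11.6%. Against its neighbour mt-Cytb, mt-Nd6 had a median of 9.65% at E10.5, against 17.4% at E11.5. These ratios were computed after the members' differences were known and are given as descriptions.

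mt-Rnr1 was 3.16 to 5.11 times the heavy-strand mRNA mean at E10.5 and 4.94 to 10.7 times at E11.5. The fold between the stages was 2.11 in WT FL, 2.15 in WT HL and 1.81 in Mut HL, each without overlap. In Mut FL the stages overlapped, at 5.09, 4.10 and 5.11 against 4.94, 5.44 and 6.07. mt-Rnr2 relative to mt-Rnr1 ranged from 12.3 to 22.2 at E10.5 (median 15.3) and from 6.06 to 16.5 at E11.5 (median 12.7). mt-Atp6 relative to the heavy-strand mean was lower at E11.5 in all 4 comparisons without overlap, with folds of 0.84, 0.87, 0.86 and 0.84. The mean includes mt-Atp6 itself. Relative to this mean, 1 member was higher and 2 were lower at E11.5 without overlap in WT FL. The counts were 3 and 2 in Mut FL, 5 and 1 in WT HL and 3 and 3 in Mut HL. These counts include the separations of mt-Nd6, mt-Rnr1 and mt-Atp6, and no share over all genes was computed for ratios.

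**Figure D4:**
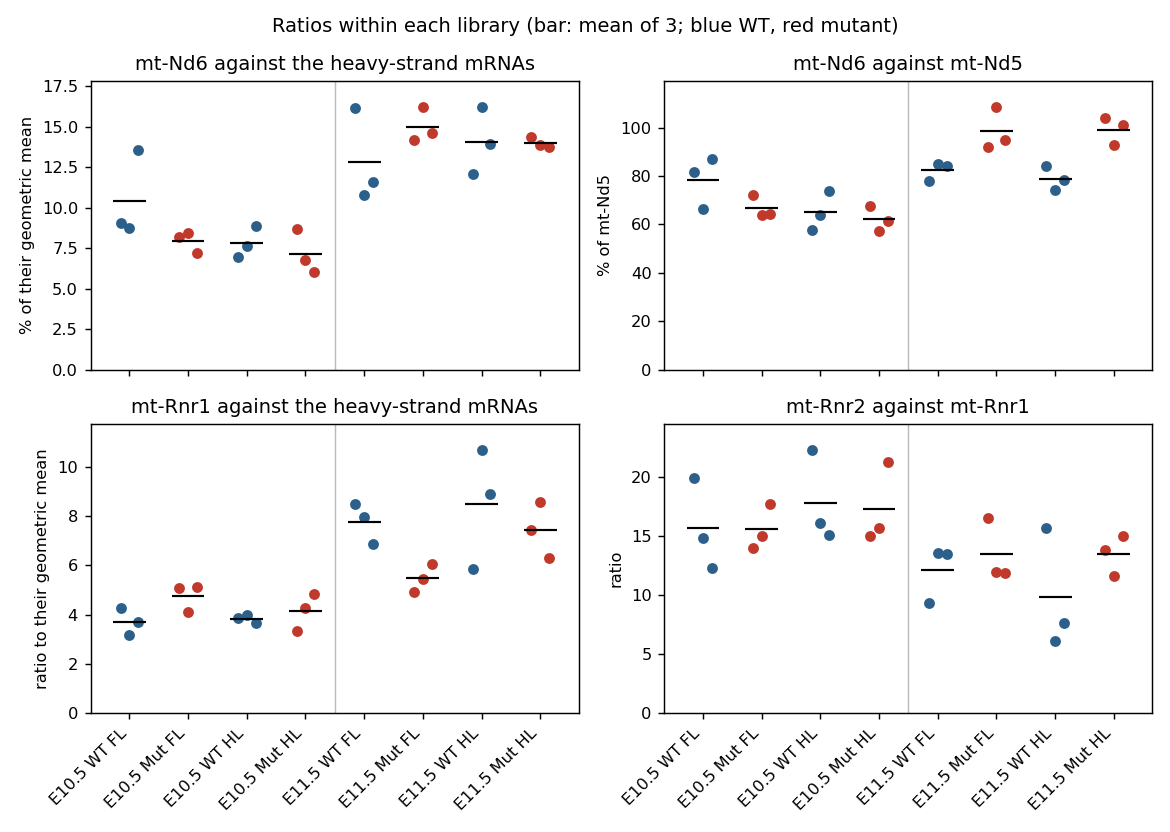
Ratios within each library, by group (points, blue for WT and red for mutant; bars, group means). mt-Nd6 as a percentage of the heavy-strand mRNA mean moves from a median of 8.33% at E10.5 to 14.0% at E11.5, and mt-Rnr1 relative to that mean from 3.16 to 5.11 up to 4.94 to 10.7.

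Nuclear ribosomal RNA signal also differed between the stages. AY036118, a symbol on chromosome 17 that overlaps nuclear rRNA sequence and was chosen after its values were seen, ranged from 1.92 to 73831 rescaled TPM over the E10.5 libraries but only from 0.0742 to 1.47 over those of E11.5. Its highest value was in E10.5 WT FL 3 and its lowest E10.5 value in E10.5 Mut FL 3. Lars2, the mitochondrial leucyl-tRNA synthetase, read 23.5 to 16035 at E10.5, against 0.993 to 7.62 at E11.5. The part of this signal in the stage differences of mt-Rnr1 and mt-Rnr2 was not tested. The mesenchyme marker sum was higher at E11.5 without overlap in every stage comparison. It was 189 to 234 against 244 to 278 in WT FL and 106 to 189 against 214 to 258 in Mut FL. In HL it was 110 to 187 against 221 to 253 in WT and 129 to 170 against 188 to 227 in mutants. The erythroid sum was lower at E11.5 without overlap in Mut FL (4533 to 5525 against 3173 to 3902) and overlapped elsewhere. The part of both sums in the stage differences was not tested either.

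The comparison of genotypes asked whether loss of U11 in limb mesenchyme changed the mitochondrial RNAs. No member passed at either stage in either limb by limma. At E10.5 the share of all genes that passed was 0.0251% in FL and 0.00836% in HL, and at E11.5 it was 1.74% in FL and 0.018% in HL. At an unadjusted p under 0.05, 0, 0, 1 and 0 members were called. The members' SE was 0.30 to 1.17 (log2) at E10.5 but 0.13 to 0.44 at E11.5, so differences of a given size were less detectable at E10.5.

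The 1 member with an unadjusted p under 0.05 was mt-Rnr1 in E11.5 FL. The WT libraries read 7126, 8484 and 6685 and the mutant libraries 4971, 3759 and 5020. All 3 mutant values were lower, as was the case for 14% of all genes (11.7% were higher without overlap, with 0 members among them), and the log2 difference was -0.70 ± 0.24 (limma, adjusted p = 0.12). In the same libraries, markers of other cell types differed without overlap: the myogenic sum was 9.88 to 11.9 in mutants and 6.35 to 6.73 in WT (5 of 5 tested genes above 0, of which Lbx1 rose), the endothelial sum 21.8 to 29.0 against 17.3 to 19.6 (8 of 8 above 0, 0 called), the neural sum 10.3 to 13.6 against 8.22 to 10.2 and the surface ectoderm sum 56.6 to 71.8 against 75.6 to 97.5. Their part in the mt-Rnr1 difference was not tested. Relative to the heavy-strand mRNA mean, the mt-Rnr1 libraries read 8.50, 7.96 and 6.86 in WT and 4.94, 5.44 and 6.07 in mutants, 0.71 times the WT value. In E11.5 HL no member was without overlap (3.14% of all genes higher, 8.45% lower), and mt-Rnr1 read 6074, 8928 and 9879 in WT and 6894, 8079 and 7614 in mutants (log2 -0.10 ± 0.24).

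The other members showed smaller differences against their spread. In E11.5 FL mt-Rnr2 read 66067, 115160 and 89787 in WT and 82023, 44836 and 59367 in mutants (log2 -0.55 ± 0.44; limma, adjusted p = 0.483). mt-Nd6 differed by log2 0.05 ± 0.13 in E11.5 FL and by 0.05 ± 0.13 in E11.5 HL, the narrowest errors of any member. mt-Atp8 differed by -0.24 ± 0.30 and 0.28 ± 0.30. The members' median in E11.5 FL was -0.21, with 13 of 15 below 0, on rescaled values, and 0.31, with 2 of 15 below 0, on TPM as deposited. The all-gene median was -0.02 and 0.39 on those scales. As deposited, mt-Cytb passed in E11.5 FL, where 33.6% of all genes did.

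At E10.5 the genotypes overlapped for all 15 members in both limbs. The share of all genes without overlap was 5.47% higher and 4.93% lower in FL, and 2.43% higher and 3.32% lower in HL. mt-Rnr2 read 70159, 93853 and 78461 in WT FL and 85506, 75339 and 158798 in Mut FL, with the highest value in E10.5 Mut FL 3. In HL it read 84209, 74138 and 64431 in WT and 40717, 58548 and 142502 in mutants, which held both the lowest and the highest value. mt-Nd6 differed by log2 -0.41 ± 0.34 in FL and -0.26 ± 0.34 in HL. The median log2 difference of the 13 mRNAs in FL was -0.075 and moved to -0.72 without both E10.5 WT FL 1 and E10.5 Mut FL 3, with 0 members called in either case. Leaving out 1 FL library at a time placed this median between -0.54, without E10.5 WT FL 1, and 0.14, without E10.5 WT FL 2.

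The difference of the mutant effect between the limbs passed for no member at E10.5 (0% of all genes) or E11.5 (0.00899%), and that between the stages for no member in FL (0.0645%) or HL (0.00807%). At an unadjusted p under 0.05 the 4 tests called 0, 0, 1 and 0 members. The 1 member was mt-Rnr1 in FL, with a difference of the mutant effects of log2 -1.02 ± 0.47 (limma, adjusted p = 0.381).

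A further ratio was seen after the values were examined and has no test. At E11.5, mt-Nd6 as a percentage of mt-Nd5, whose gene meets it end to end on the opposite strand, read 77.9%, 84.9% and 84.1% in WT FL and 92.2%, 108% and 95.0% in Mut FL. In HL it read 84.2%, 74.2% and 78.4% in WT and 104%, 92.7% and 101% in mutants. All 6 mutant libraries stood above all 6 WT libraries. The other mt-Nd6 ratios overlapped between the genotypes at E11.5: against the heavy-strand mean mt-Nd6 stood at 10.8% to 16.2% in WT and 13.8% to 16.2% in mutants, and against mt-Cytb at medians of 16.8% and 17.4%. Of the 15 members relative to the heavy-strand mean, 4 in each limb were without overlap between the genotypes at E11.5, and no share over all genes was computed for ratios. At E10.5 the genotypes overlapped in both limbs, over a range of 57.2% to 87.1%.

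The comparison of limbs asked how HL differed from FL. No member passed by limma in any of the 4 comparisons, against 0.092% of all genes in E10.5 WT, 0.0586% in E10.5 Mut, 0.144% in E11.5 WT and 0.44% in E11.5 Mut. At an unadjusted p under 0.05 the counts were 1, 0, 0 and 1. At E10.5 all 15 members had a negative difference in both genotypes on rescaled values, with medians of -0.39 in WT and -0.49 in mutants, while 12 and 5 of 15 were negative on TPM as deposited. At E11.5 in mutants all 15 were positive on rescaled values, with a median of 0.32, and 13 of 15 were negative as deposited.

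mt-Nd6 had the largest limb difference in E10.5 WT, at log2 -0.76 ± 0.34 (limma, adjusted p = 0.514). Its HL values of 68.4, 88.1 and 104 overlapped the FL values of 74.7, 175 and 234 through E10.5 WT FL 1. In E10.5 WT the limbs overlapped for all 15 members, against 5.65% of all genes higher and 6.08% lower without overlap. In E10.5 mutants HL lay below FL without overlap for mt-Nd2, mt-Nd5 and mt-Nd6, 3 of 15 members against 9.8% of all genes, and 0 members lay above (7.38%). mt-Nd6 read 70.7, 59.4 and 84.0 there in HL and 98.6, 104 and 126 in FL (log2 -0.62 ± 0.34). In the same libraries the erythroid sum was 1924 to 2850 in HL and 4533 to 5525 in FL (11 of 11 tested genes below 0, 10 with an unadjusted p under 0.05, 0 called by limma, median log2 -1.02). The myogenic sum was 3.64 to 4.14 against 7.70 to 9.34, the neural sum 8.26 to 10.4 against 12.7 to 13.2 and the endothelial sum, higher in HL, 31.6 to 45.8 against 24.8 to 29.6. Their part in the limb differences was not tested.

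In E11.5 mutants both rRNAs were higher in HL without overlap, as were 8.86% of all genes, and 0 members were lower (13%). mt-Rnr1 read 6894, 8079 and 7614 in HL and 4971, 3759 and 5020 in FL (log2 0.74 ± 0.24; limma, adjusted p = 0.202). mt-Rnr2 read 95280, 93740 and 113923 in HL and 82023, 44836 and 59367 in FL (log2 0.75 ± 0.44; limma, adjusted p = 0.405). Here the myogenic sum was 4.56 to 5.90 in HL and 9.88 to 11.9 in FL and the surface ectoderm sum 84.5 to 95.6 against 56.6 to 71.8, and their part was not tested. In E11.5 WT the limbs overlapped for both rRNAs. There mt-Nd2 was the 1 member without overlap, higher in HL at 231, 216 and 297 against 213, 192 and 209, as were 4.96% of all genes, and 0 members were lower (7.31%). The myogenic sum in these WT libraries was 5.74 to 5.91 in HL and 6.35 to 6.73 in FL, and its part was not tested.

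The change of the limb difference between the stages was tested after the data were seen. No member passed by limma in WT (0.0161% of all genes), in mutants (0.0323%) or on the average of both (0.161%), and 2, 3 and 6 members had an unadjusted p under 0.05. The smallest p on average were those of mt-Nd6 at log2 0.88 ± 0.27 (adjusted p = 0.254), mt-Nd2 at 0.84 ± 0.28 (adjusted p = 0.273) and mt-Rnr1 at 0.92 ± 0.33 (adjusted p = 0.296). Without E10.5 WT FL 1, 4 members passed in that average. Averaged over stages and genotypes, no member differed between limbs by limma (2.52% of all genes; 0 members at an unadjusted p under 0.05), but 1, mt-Nd6, passed without E10.5 WT FL 1. The average mutant effect likewise called no member (0.226% of all genes; 0 at an unadjusted p under 0.05).

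**Figure D5:**
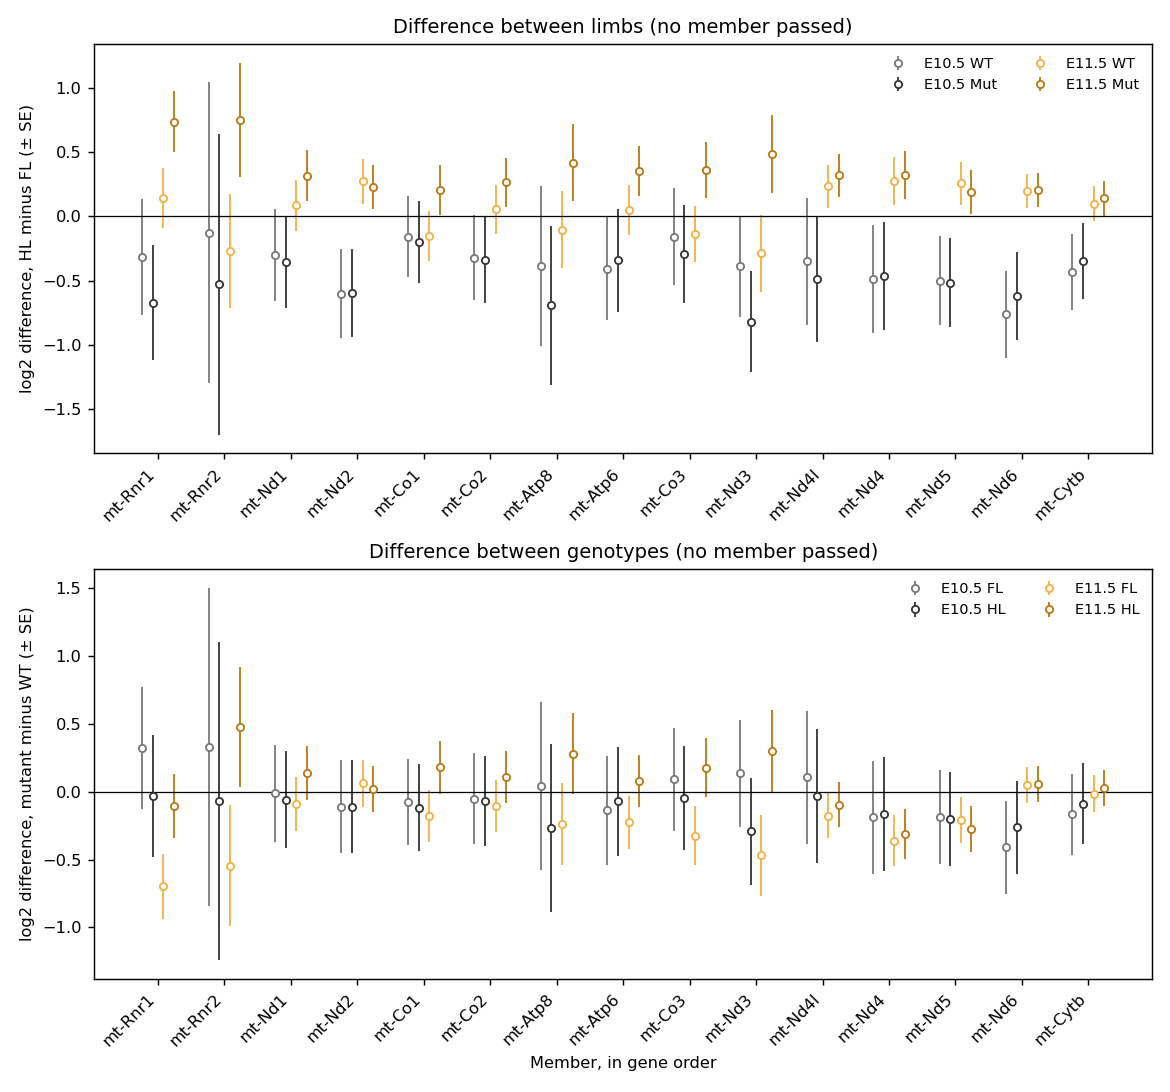
Log2 differences of rescaled TPM with SE bars for the 15 members in gene order: HL against FL (upper panel) and mutant against WT (lower panel), in each of 4 comparisons; no member passed an adjusted p of 0.05. All 15 points of both E10.5 limb comparisons lie below 0 and all of E11.5 mutants above 0 (on TPM as deposited 12 and 5 of the E10.5 WT and Mut members and 13 of the E11.5 Mut members lie below 0), and mt-Rnr1 in E11.5 FL has the largest genotype difference at that stage (-0.70).

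Nuclear genes that make and use these RNAs were counted from lists. Of 35 tested genes for mitochondrial RNA synthesis and processing, 10 rose and 5 fell between the stages in WT FL, 4 rose and 9 fell in Mut FL, 3 rose and 11 fell in WT HL, and 5 rose and 7 fell in Mut HL. Of all genes, 22.4%, 18.1%, 23% and 18% rose and 16.4%, 17.3%, 17.9% and 17.5% fell in the same 4 comparisons. Of 77 mitochondrial ribosomal protein genes, 31, 37, 38 and 37 fell and 8, 4, 8 and 8 rose, with medians of -0.29, -0.35, -0.39 and -0.40 (log2) against 0.06, 0.01, 0.06 and 0.02 for all genes. Mrpl45 (log2 -0.85) and Mrps18a (-0.62) in WT FL, Mrpl51 (-0.55) and Mrps27 (-0.47) in Mut FL, Mrpl44 (-0.89) in WT HL and Mrpl10 (-0.93) in Mut HL were among those with the smallest adjusted p.

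Of 19 aminoacyl-tRNA synthetase genes with a mitochondrial product, 5, 5, 9 and 9 fell and 0, 2, 0 and 0 rose in the same order, beside 16.4%, 17.3%, 17.9% and 17.5% of all genes that fell and 22.4%, 18.1%, 23% and 18% that rose. Gars, which serves both the cytosol and mitochondria, fell by 0.82 ± 0.09 in WT FL, 1.05 in WT HL and 0.86 in Mut HL on the log2 scale. Lars2, counted among these 19, fell by 10.80 ± 1.48 in WT HL, beside the nuclear rRNA signal described above. Its highest and lowest E10.5 values came from the same libraries as those of AY036118. Whether its fall reflects synthetase mRNA was not tested. Pnpt1, which codes for the mitochondrial polynucleotide phosphorylase, fell by 0.80 ± 0.13 in Mut FL. Myc, a regulator of growth and of mitochondrial biogenesis, fell by 1.51 in Mut HL.

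The remaining lists are also given in the order WT FL, Mut FL, WT HL and Mut HL, where 16.4% to 17.9% of all genes fell and 18% to 23% rose. Of these, 13 replication and nucleoid genes rose in 5, 2, 1 and 0 cases and fell in 2, 3, 5 and 5. The 17 tRNA modification genes rose in 2, 1, 0 and 0 and fell in 3, 2, 6 and 5. The 14 rRNA modification genes rose in 1, 0, 0 and 1 and fell in 2, 4, 2 and 4, and the 8 regulators of mitochondrial biogenesis rose in 1, 1, 2 and 1 and fell in 2, 1, 3 and 4. Between genotypes and limbs 2 calls were made over all these lists: Myc rose in mutants in E11.5 FL (log2 0.58 ± 0.12; limma, adjusted p = 0.041), where 1.74% of all genes were called, and was lower in HL than FL in E11.5 mutants (-0.66 ± 0.12; limma, adjusted p = 0.0483), where 0.44% were.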

How the data were processed

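RNA sequencing of 24 limb bud libraries was analysed from the TPM values that the authors deposited for 38019 symbols per library. HISAT2 and mm10 are named in the submitters' processing notes; for the quantifier, annotation and strand setting no source used here gives a name. Each library summed to 1000000 TPM. Members and gene lists were chosen with earlier results of these data known. Libraries were rescaled to a common median log2 value over genes of at least 5 TPM in all libraries of a fit, because a few very abundant RNAs differed between libraries. Genes of at least 1 TPM in at least 3 libraries entered limma 3.58.1 (R 4.3.3) on log2(TPM + 1), with trended variances. Folds on this scale understate changes of low genes. Genotype and limb were tested within a stage (11955 genes at E10.5, 11126 at E11.5) and stage over all 24 libraries (12399 genes). Benjamini-Hochberg adjusted p under 0.05 was called. Symbols were matched to GENCODE M21 (36217 matched, all 37 members included). Python 3.11.15, pandas 2.3.3, numpy 2.4.6 and matplotlib 3.10.9 made the tables and figures.

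Named with full values were both rRNAs, mt-Nd6, the highest and lowest mRNA, and up to 3 members and 3 genes from the nuclear lists per comparison, by adjusted p; 5 nuclear genes most like the heavy-strand mRNA mean were also named. On simulated data with 100 genes changed at each size, 81% of 2-fold and 99% of 4-fold changes were recovered in the E11.5 FL genotype comparison (13 false calls, 10890 genes), 18% and 86% in the E10.5 WT limb comparison (5 false calls, 11689 genes) and 52% and 100% in the WT FL stage comparison (6 false calls, 11999 genes). In the simulation all other genes had no group difference and each gene varied independently. In the data many more genes differed between stages and the members varied together, so these rates need not hold for the members. Same-numbered libraries deviated together in every pair in the E10.5 Mut limb comparison alone (r = 0.11, 0.18 and 0.20), and the labels name no shared source. Alternatives were deposited TPM, other scalings, no filter, only the libraries compared, a replicate block and leaving out libraries; average effects, limb by stage differences and the set without 3 E11.5 WT libraries were added after the data were seen. Marker lists of endothelium, myeloid, neural, myogenic and surface ectoderm cells were also summed.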

Additional observations from a re-analysis of the deposited data

Results flagged for a closer look

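mt-Rnr1 drew attention because the 3 E11.5 libraries did not overlap the 3 E10.5 libraries in opposite directions in different groups: its log2 stage difference was 0.50 in WT FL, -0.52 in Mut FL, 0.88 in Mut HL and 0.95 in WT HL. In Mut FL the separation rested on 5029 against 5019.7 rescaled TPM, and relative to the heavy-strand mRNA mean mt-Rnr1 there was not lower at E11.5 (5.48 ± 0.57 against 4.77 ± 0.58 at E10.5; SD, n = 3; the libraries overlapped). The difference between WT FL and Mut FL, tested as an interaction, was -1.02 ± 0.47 (limma, adjusted p = 0.381), and that between Mut HL and Mut FL was 1.40 ± 0.47 (adjusted p = 0.263). Neither passed.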

How the results depend on the processing

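Counts of members called in the stage comparisons moved with the processing. On TPM as deposited they were 8 in WT FL, 0 in Mut FL, 9 in WT HL, 7 in Mut HL and 13 on average, in place of 4, 6, 1, 2 and 8, and mt-Nd6 turned from 0.40 to -0.033 on average; 1 member (mt-Cytb) passed between genotypes in E11.5 FL. With no filter the 4 counts were 2, 0, 0 and 1. With only the libraries compared, WT FL gave 0 and Mut HL 1. Scaling to the nuclear protein-coding sum gave 2 in WT HL and 1 in Mut HL. Without both E10.5 WT FL 1 and E10.5 Mut FL 3, WT FL gave 11, Mut FL 2, the average limb difference 1 and the limb by stage average 3. Without the 3 E11.5 WT libraries of lowest mt-Rnr2 to mt-Rnr1 ratio, the average stage count was 5. Leaving out each library in turn gave 1 to 11 in WT FL, 0 to 6 in Mut FL, 0 to 2 in WT HL, 1 to 2 in Mut HL, 8 to 12 for the average stage effect, 0 to 1 for the average limb effect and 0 to 4 for the limb by stage average. The causes were not tested.

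With a replicate block the counts were 4 in WT FL, 7 in Mut FL, 2 in WT HL (mt-Nd6 and mt-Rnr1), 2 in Mut HL and 9 on average, and 0 in all genotype, limb and interaction tests; the numbers are shared labels and do not pair libraries by a stated source. mt-Nd6 in Mut HL passed under every alternative run except deposited TPM (0.15; limma, adjusted p = 0.711; others 0.00542 to 0.043). Depth is unknown and the tRNAs could not be measured. For 241 results on single members or class medians, 4068 of 4193 alternative values counted as unchanged, 77 no longer passed, 40 newly passed, 7 moved and 1 reversed. For a single member, unchanged meant the same side of the threshold, and a change of sign was allowed where neither value passed. For a class median it meant a small shift, whatever the sign.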

Other observations

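Marker lists of cell types other than mesenchyme were summed as rescaled TPM in each library. Where a member separated between genotypes or limbs, the sums that did so are given with it. Sums also separated at E10.5 where no member did. The erythroid sum was 4533 to 5525 in Mut FL against 2056 to 2914 in WT FL. The myogenic sum was 3.64 to 4.14 in Mut HL against 5.37 to 8.74 in WT HL. In WT the endothelial sum was 35.6 to 37.4 in HL against 22.6 to 32.3 in FL. The mesenchyme sum there was 110 to 187 against 189 to 234. Sums also separated between the stages. In WT FL the ectoderm sum was 54.3 to 58.3 at E10.5 against 75.6 to 97.5 and the endothelial sum 22.6 to 32.3 against 17.3 to 19.6. The myogenic sum there was 7.34 to 11.4 against 6.35 to 6.73 and the neural sum 11.4 to 14.0 against 8.22 to 10.2. Myogenic and myeloid sums separated in Mut FL, the endothelial sum in WT HL, and endothelial, ectoderm and myogenic sums in Mut HL. Endothelial markers (8 genes) read up to 45.8 at E10.5, against at most 31.1 at E11.5. Surface ectoderm markers (10 genes) read 35.7 to 100.4 at the earlier stage and 50.7 to 97.5 at the later one. Over the 24 libraries, myogenic markers (6 genes) ranged from 3.64 to 11.9, highest in E11.5 Mut FL 1. Neural markers (7 genes) ranged from 8.22 to 14.0 and myeloid markers (6 genes) from 0.515 to 6.27. Their part in the values of the mitochondrial RNAs was not tested.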
